A study of Mus musculus with 24 samples.

Results

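Pcp4, Wfs1, Fibcd1, Mpped1, Spink8, Cpne4, Amigo2, Map3k15 and Nectin3 are 9 genes known as markers of the CA fields, the bands of pyramidal neurons of the hippocampus. They were chosen by symbol, and each matched 1 Ensembl identifier among the 55385 genes of the count table. RNA-Seq was performed on the hippocampus (HIP) and the entorhinal cortex (EC) of 6 Ts65Dn mice and 6 wild-type (wt) littermates, so that each of the 12 mice gave 1 library per region and there were 24 libraries. All mice were untreated males aged 5 to 6 months on an F1 B6C3B background. Ts65Dn mice model Down syndrome through an extra minichromosome that joins the Mmu16 segment from Mir155 to Zbtb21 to the centromeric end of Mmu17, so they also carry extra copies of Mmu17 genes that are not orthologous to human chromosome 21. Pcp4 was the only one of the 9 genes inside the triplicated Mmu16 segment.

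Pyramidal neurons of CA3 receive input from dentate granule cells and send axons to CA1, while CA2 lies between them, and the EC provides the main cortical input to all of these fields. Genes that label 1 field in the hippocampus are often also used by other neurons of the forebrain, and Wfs1, for example, also labels clustered neurons of the superficial EC. Pcp4 encodes a small protein that binds calmodulin and speeds its exchange of calcium. It labels CA2 pyramidal and dentate granule cells in the hippocampus and is also found in the striatum, the thalamus and deep layers of the cortex. Wfs1, an endoplasmic reticulum membrane protein, Fibcd1, a receptor with a fibrinogen-like domain, Mpped1, a metallophosphoesterase, and Spink8, a Kazal-type protease inhibitor, are used as markers of CA1. Amigo2, a cell adhesion molecule with leucine-rich repeats, and Map3k15, a stress-activated kinase, are used for CA2, and Nectin3, an immunoglobulin-like adhesion molecule, for CA3. Cpne4 encodes a copine, a protein that binds phospholipids when calcium is present.

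In GRCm38 coordinates Pcp4 (ENSMUSG00000090223) lies on the plus strand at chr16:96467606-96525793. Nectin3 (ENSMUSG00000022656, chr16:46387706-46498525) is on the same chromosome but outside the triplicated segment, which spans chr16:84714140-97962622. The other 7 genes are on other chromosomes. These are Wfs1 (chr5:36966104-36989205), Fibcd1 (chr2:31813290-31846005), Mpped1 (chr15:83779467-83858494), Spink8 (chr9:109812280-109826633), Cpne4 (chr9:104547286-105034544), Amigo2 (chr15:97244125-97247287) and Map3k15 (chrX:159988433-160123351). A readthrough gene annotated as Igsf5 (ENSMUSG00000117081, chr16:96361794-96525580) shares 243 of the 1026 exonic bases of Pcp4 on the same strand. That gene had 0 counts in each of the 24 libraries, and reads in the shared bases may have been left uncounted. Amigo2 shares 58 exonic bases and Map3k15 603 with genes on the opposite strand, and whether the counting used the strand is not given in the sources used here.

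The promoter of the triplicated gene is shown beside that of Fibcd1, a CA1 marker with a far higher level in the HIP than in the EC. Each sequence is the 250 bases before the transcription start, 5′ to 3′, from RefSeq on GRCm38.p6, at chr16:96467356-96467605 on the plus strand for Pcp4 and at chr2:31846006-31846255 on the minus strand for Fibcd1, with each CpG dinucleotide in capitals.
Pcp4: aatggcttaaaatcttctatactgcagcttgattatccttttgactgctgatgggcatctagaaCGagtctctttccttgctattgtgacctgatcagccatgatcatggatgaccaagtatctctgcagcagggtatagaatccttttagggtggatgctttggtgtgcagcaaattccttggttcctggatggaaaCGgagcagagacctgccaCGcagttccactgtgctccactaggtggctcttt
Fibcd1: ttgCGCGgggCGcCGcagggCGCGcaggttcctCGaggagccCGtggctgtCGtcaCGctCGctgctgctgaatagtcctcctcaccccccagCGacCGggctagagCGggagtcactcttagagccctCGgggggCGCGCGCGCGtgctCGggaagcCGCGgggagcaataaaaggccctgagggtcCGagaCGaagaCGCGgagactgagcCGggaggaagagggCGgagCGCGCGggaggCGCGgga
The Pcp4 window held 3 CpG dinucleotides and the Fibcd1 window 34, against a median of 6 over 32851 RefSeq windows of the same length. Among the other markers the windows of Wfs1, Mpped1, Cpne4, Amigo2 and Nectin3 held between 13 and 47. Some of these RefSeq windows do not adjoin the 5′ end of the gene span given above. The distance was 22369 bases for Cpne4, 1558 for Nectin3, 556 for Mpped1 and 223 for Wfs1. Mpped1 and Cpne4 had 2 windows each, of which 1 was used. GC content was 46.8% for Pcp4 and between 59.6% and 88.8% for the other 6 genes with a window. The letters CAGATG, an E-box, were found on either strand once in the Wfs1 window and in no other of the 7, against 14.4% of all windows. The TATA box TATAAA (12.4% of all windows) and the cyclic AMP response element TGACGTCA (1.55%) were found in none of the 7.

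The counts were scaled by the TMM method to CPM, counts relative to the library size, on the 24 libraries together. Libraries held between 23128589 and 40476492 counts on genes. The dissections were checked with markers of the regions. All 6 dentate granule markers were higher in the HIP than in the EC of wt mice, for instance Prox1 (log2 fold change 3.47) and Dsp (6.78). Of 10 entorhinal and cortical markers, 7 were lower in the HIP, for instance Cux2 (-2.15) and Rorb (-1.73). However, 1 of the 10, Etv1, was higher in the HIP (mean 113 CPM, against 85.2 in the wt EC). The library labelled Ts65Dn replicate 3 did not show the levels of the triplicated genes seen in the other Ts65Dn mice. Over the 11 Mmu16 neighbours of Pcp4, its summed level was 356 CPM in the HIP, where the other 5 Ts65Dn libraries lay between 506 and 547 and the wt libraries between 341 and 378. In the EC its sum was 298 CPM, against 416 to 456 in the other Ts65Dn mice and 268 to 304 in wt. The summed level of 8 thalamic markers was 403 CPM in the HIP of wt replicate 4 and 348 CPM in that of Ts65Dn replicate 3, while the other 10 HIP libraries lay between 172 and 244. Choroid plexus markers varied between 353 and 7706 CPM in the HIP. Differences of Pcp4 and Wfs1 between genotypes are given with and without wt replicate 4 and Ts65Dn replicate 3.

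**Figure D1:**
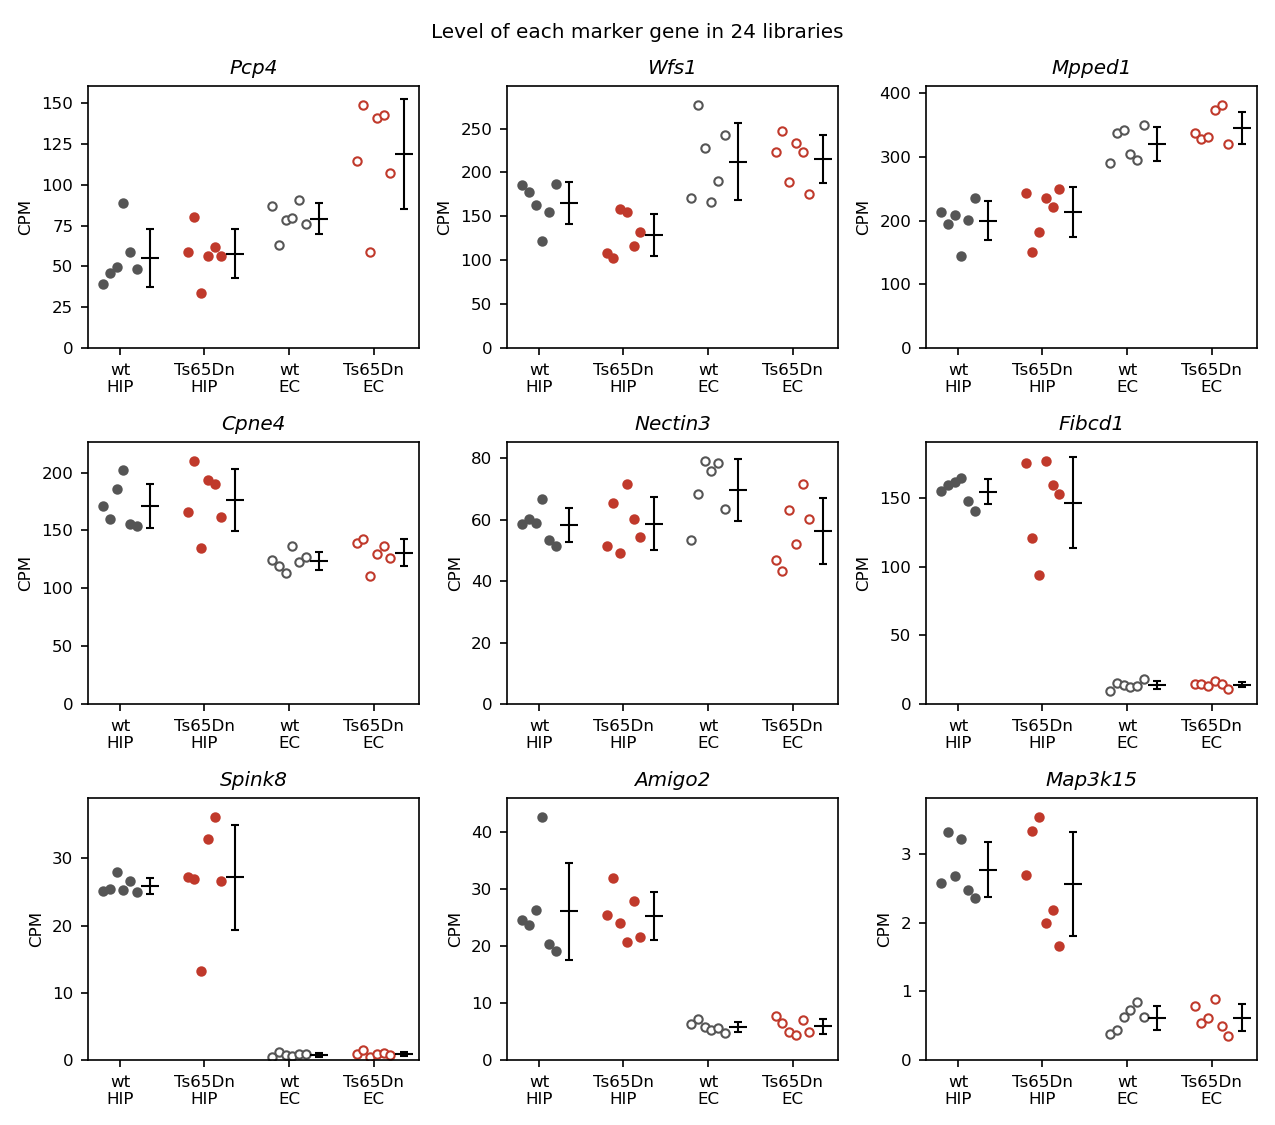
Level in CPM of each of the 9 genes in 24 libraries, by genotype and region (6 mice a group; filled points, HIP; open points, EC; bars, mean and SD). Fibcd1, Spink8, Amigo2 and Map3k15 were near the bottom of the scale in every EC library, whereas Pcp4, Wfs1 and Mpped1 had higher means in the EC than in the HIP.

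Per kilobase of exon not shared with another gene on the same strand, Pcp4 had the highest mean level of the 9 genes in each of the 4 groups. It had 70.4 ± 22.6 CPM per kilobase (SD, n = 6) in the wt HIP and 101 ± 12.2 in the wt EC. In the wt HIP it was followed by Mpped1 (46.4 ± 7.10), Wfs1 (43.6 ± 6.45), Fibcd1 (32.6 ± 1.94), Spink8 (31.5 ± 1.43) and Cpne4 (31.2 ± 3.48). The ranges of neighbours in this order overlapped from Pcp4 down to Cpne4. Amigo2 (8.26 ± 2.69 CPM per kilobase), Nectin3 (4.57 ± 0.429) and Map3k15 (0.637 ± 0.0921) followed, each with a range apart from the gene above it. In the wt EC the first 4 genes were Pcp4, Mpped1 (74.4 ± 6.13), Wfs1 (56.1 ± 11.6) and Cpne4 (22.5 ± 1.43). They were followed by Nectin3 (5.47 ± 0.792), Fibcd1 (2.91 ± 0.607), Amigo2 (1.84 ± 0.267), Spink8 (0.936 ± 0.345) and Map3k15 (0.140 ± 0.0402). Here neighbours overlapped from Pcp4 to Wfs1 and between Fibcd1 and Amigo2, and the other neighbours were apart. In Ts65Dn mice the Pcp4 level per kilobase was 73.9 ± 18.9 (HIP) and 152 ± 43.1 (EC). With the whole exonic length, Pcp4 would have 53.8 CPM per kilobase in the wt HIP and 77.2 in the wt EC, which leaves it first in both by the means.

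The first comparison asked how the levels differed between the regions within the same mice. In wt mice, Spink8, Fibcd1, Map3k15, Amigo2 and Cpne4 were higher in the HIP, and Mpped1, Pcp4, Wfs1 and Nectin3 were lower in the HIP than in the EC. All 9 genes passed the test, which is edgeR's quasi-likelihood test with a term for each mouse, at a threshold of 0.05 on the p-value after Benjamini-Hochberg adjustment. Of all genes tested, 61.3% passed it (31% higher and 30.3% lower in the HIP), so the count itself says little about these markers. The median log2 fold change was 0.46 over the 9 genes and 0.00 over all 17196 genes tested. In whole tissue, fewer cells of a type and less RNA per cell cannot be told apart.

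Spink8 showed the widest separation. It lay between 24.9 and 28.0 CPM in the wt HIP (median 25.3) and between 0.380 and 1.20 in the wt EC (median 0.803), where the libraries held between 10 and 36 counts. All HIP libraries were far above all EC libraries. The level was 33.4-fold higher in the HIP (95% confidence interval 26.8 to 41.7, log2 fold change 5.06, SE 0.144, adjusted p = 3.52e-09). Fibcd1, also a CA1 marker, lay between 140.2 and 164 CPM in the wt HIP (median 157) and between 9.70 and 18.4 in the wt EC (median 13.7), again without overlap. Its difference was 11.3-fold (interval 9.50 to 13.3, log2 fold change 3.49, SE 0.110, adjusted p = 7.16e-09).

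The markers used for CA2 were also higher in the HIP. Amigo2 lay between 19.1 and 42.6 CPM in the wt HIP (median 24.1) and between 4.72 and 7.15 in the wt EC (median 5.70). The groups did not overlap, and the HIP level was 4.34-fold higher (interval 3.50 to 5.39, adjusted p = 6.10e-07). Map3k15 was the lowest of the 9 genes, between 2.36 and 3.32 CPM in the wt HIP (median 2.63) and between 0.380 and 0.843 in the wt EC (median 0.630), on 67 to 140 counts a library in the former and 10 to 23 in the latter. Its level was 4.56-fold higher in the HIP (interval 3.41 to 6.11, adjusted p = 3.86e-06). Cpne4 differed less. It lay between 154 and 202 CPM in the wt HIP and between 113 and 137 in the wt EC, without overlap, a 1.37-fold difference (interval 1.26 to 1.49, adjusted p = 3.69e-05).

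The other 4 markers went the other way. Mpped1, a CA1 marker, lay between 144 and 235 CPM in the wt HIP (median 205) and between 290.1 and 350.5 in the wt EC (median 321). All HIP libraries were below all EC libraries, with a 1.62-fold higher level in the EC (interval 1.45 to 1.81, adjusted p = 1.44e-05). Wfs1 lay between 122 and 187 CPM in the wt HIP and between 166 and 276 in the wt EC, and 5 of 6 mice were lower in the HIP. The groups overlapped, and the level was 1.28-fold higher in the EC (interval 1.13 to 1.45, adjusted p = 0.00274). Nectin3 lay between 51.3 and 66.8 CPM in the wt HIP and between 53.4 and 79.0 in the wt EC, also with overlap, and was 1.20-fold higher in the EC (interval 1.07 to 1.34, adjusted p = 0.0115). Pcp4 lay between 39.0 and 88.9 CPM in the wt HIP (median 49.0) and between 63.4 and 90.7 in the wt EC (median 79.2). It was 1.48-fold higher in the EC (interval 1.22 to 1.79, adjusted p = 0.00265). The HIP of wt replicate 4, at 88.9 CPM, was the only wt HIP library above 59.0, and this mouse was the only one of the 6 with more Pcp4 in the HIP than in the EC.

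**Figure D2:**
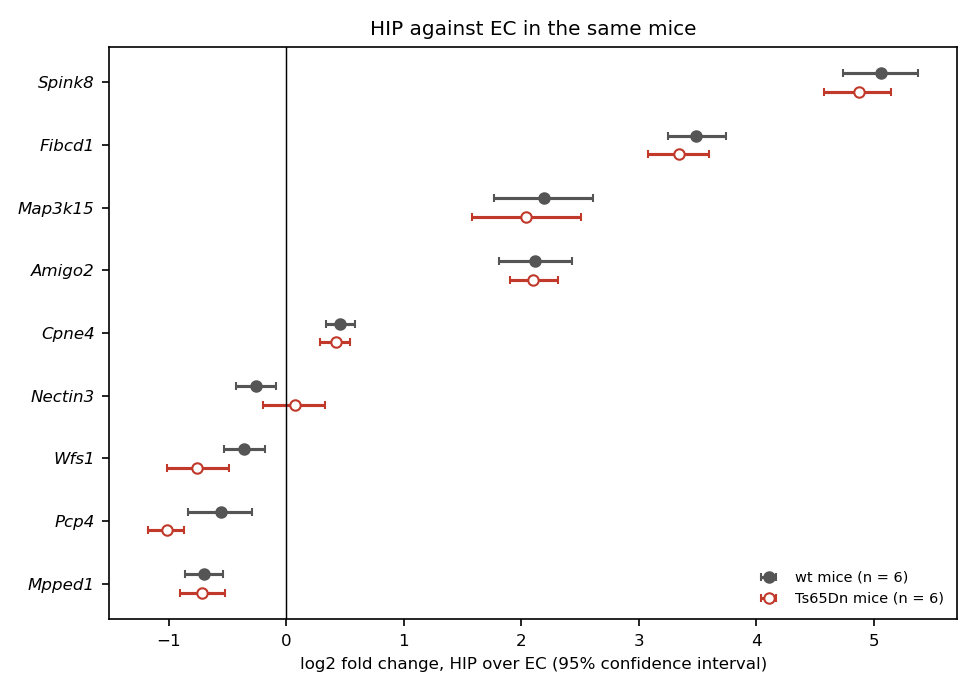
Log2 fold change of the HIP over the EC with its 95% confidence interval for each of the 9 genes, in 6 wt mice (filled) and 6 Ts65Dn mice (open). Values run from 5.06 for Spink8 in wt mice to -1.02 for Pcp4 in Ts65Dn mice, and the interval of Nectin3 in Ts65Dn mice is the only one of the 18 drawn that includes 0.

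In Ts65Dn mice 8 of the 9 genes passed the same test, against 52.3% of all genes tested (26.6% higher and 25.7% lower in the HIP), with the same signs as in wt mice. Spink8 (29.2-fold), Fibcd1 (10.2-fold), Amigo2 (4.30-fold), Map3k15 (4.12-fold) and Cpne4 (1.33-fold) were higher in the HIP. Pcp4 was 2.03-fold higher in the EC (interval 1.82 to 2.27, adjusted p = 1.29e-06), and was lower in the HIP in each of the 6 mice, by 0.78 to 1.31 on the log2 scale. Wfs1 was 1.69-fold higher in the EC (interval 1.40 to 2.03, adjusted p = 0.000433), here without overlap of the groups, and Mpped1 1.64-fold (interval 1.44 to 1.88, adjusted p = 6.80e-05). Nectin3 did not pass the test in Ts65Dn mice, with a log2 fold change of 0.07 (interval -0.20 to 0.33) and 3 of 6 mice on each side. The count of 8 was the same without Ts65Dn replicate 3. The groups did not overlap for 6 of the 9 genes in wt mice, against 34.2% of all genes, and for 6 in Ts65Dn mice, against 27.1%.

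Most other field markers were also higher in the HIP, against 31% of all genes tested in wt mice. In Ts65Dn mice 5 of 6 CA1, 4 of 7 CA2 and 4 of 7 CA3 markers were higher, against 26.6% of all genes. In each of these lists 1 marker was lower in Ts65Dn mice. Of the 6 other CA1 markers, 5 were higher in the HIP of wt mice, led by Lefty1 (log2 fold change 4.64), Ndst4 (3.13), Gpr161 (2.68) and Pou3f1 (2.29). The other 1 was lower. Of 7 CA2 markers, 5 were higher, led by Avpr1b, a vasopressin receptor (5.01), and Ntf3, a neurotrophin (2.07), and 1 was lower, Ptpn5. Of 7 CA3 markers, 5 were higher, led by Iyd (5.58), and Coch (-2.90) and Plagl1 were lower. The largest of these fold changes rest on very few EC counts. The wt EC libraries held 0 to 3 counts of Avpr1b, 1 to 8 of Iyd and 6 to 13 of Lefty1. The medians of these lists were 2.49, 1.03 and 0.90, against 0.46 for the 9 genes. Oligodendrocyte markers were also higher in the HIP, 5 of 5 with a median log2 fold change of 2.03, and choroid plexus markers 8 of 8 with a median of 4.18. Their part in the differences of the 9 genes was not tested.

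The second comparison asked whether the levels differed between Ts65Dn and wt mice. In the HIP none of the 9 genes passed the test (0 of 9, against 1.04% of 17355 genes tested), and 1 had an unadjusted p under 0.05, against 14.8% of all genes. With DESeq2 the count was also 0. The median log2 fold change was 0.01 over the 9 genes and 0.00 over all genes. No gene of the 9 had groups that did not overlap, against 1.67% of all genes.

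Pcp4 lay between 34.0 and 80.3 CPM in the Ts65Dn HIP (median 57.6), against 39.0 to 88.9 in the wt HIP (median 49.0). The highest value belonged to a wt mouse and the lowest to a Ts65Dn mouse. The means were 57.9 ± 14.8 and 55.2 ± 17.7 CPM (SD, n = 6 each), a log2 fold change of 0.07 (SE 0.202, interval -0.37 to 0.50, adjusted p = 0.914). The upper bound, 1.42-fold, was below the fold change of 1.5 that 1 extra copy predicts. That bound rests on wt replicate 4 (88.9 CPM) and Ts65Dn replicate 3 (34.0 CPM), the 2 HIP libraries with raised thalamic markers. Without wt replicate 4 the log2 fold change was 0.26 (interval -0.10 to 0.61), and without Ts65Dn replicate 3 it was 0.18 (interval -0.21 to 0.57). Without both, the remaining Ts65Dn mice lay between 56.1 and 80.3 CPM and the wt mice between 39.0 and 59.0, with 1 wt mouse inside the Ts65Dn range. The log2 fold change was then 0.37 (interval 0.11 to 0.63, adjusted p = 0.169). These were the highest wt and the lowest Ts65Dn mouse for Pcp4 in the HIP. Leaving them out, singly or together, had to raise the estimate, so these values are not independent evidence. Both libraries had raised thalamic markers, and they lay at opposite ends of the Pcp4 range. None of the 8 thalamic markers, of which none was at 0 in any library, passed the test between genotypes in the HIP, and their part in the Pcp4 difference was not tested.

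Among the genes of the triplicated Mmu16 segment tested in the HIP, Pcp4 had the lowest log2 fold change of 90. Their median was 0.50, and 42 of them passed the test, all of them higher in Ts65Dn. The next lowest, Runx1, a transcription factor of blood and microglia, was at 0.12. Without wt replicate 4 and Ts65Dn replicate 3, whose removal had to raise its estimate, Pcp4 was at rank 6 of 92 from the lowest. The median over these genes was then 0.57. With all mice, all tested neighbours of Pcp4 on Mmu16 had higher log2 fold changes in the HIP. Upstream these were Psmg1, a proteasome assembly chaperone (0.59), Brwd1, a bromodomain protein (0.46), Hmgn1, a nucleosome binding protein (0.45), Wrb, a receptor for tail-anchored proteins (0.57), Lca5l (0.48), Sh3bgr (0.36), B3galt5, a galactosyltransferase (0.38), and Igsf5 (0.42). Downstream they were Dscam, a neuronal adhesion molecule (0.53), and Bace2, a relative of the beta-secretase (0.90). Psmg1, Brwd1, Hmgn1, Wrb and Dscam passed the test, 5 of 10 tested, with adjusted p-values from 0.00984 to 0.0282. Itgb2l, the nearest upstream neighbour, was too low to be tested in either region.

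**Figure D3:**
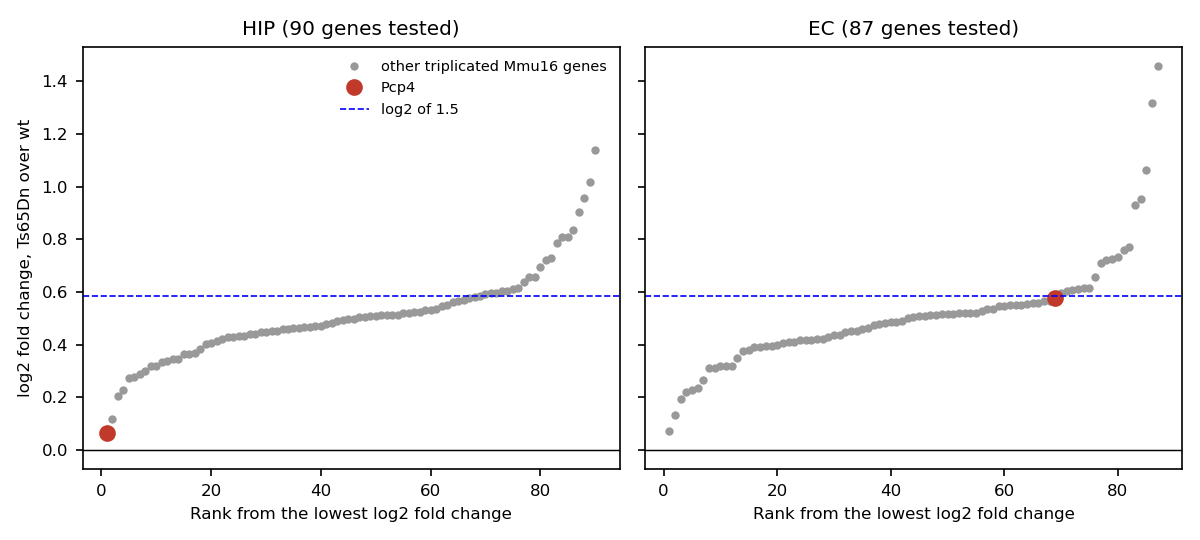
Log2 fold change of Ts65Dn over wt for each triplicated Mmu16 gene tested, in order from the lowest, in the HIP (90 genes, left) and the EC (87 genes, right), with a dashed line at the log2 of 1.5. Pcp4 (large point) is the lowest gene in the HIP and stands at rank 69 in the EC.

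In the EC, Pcp4 lay between 58.9 and 149 CPM in Ts65Dn mice (median 128) and between 63.4 and 90.7 in wt mice (median 79.2). The Ts65Dn mice had 115, 149, 58.9, 141, 143 and 107 CPM for replicates 1 to 6, so that 5 of the 6 lay above every wt mouse and replicate 3 below every wt mouse. The means were 119 ± 33.7 and 79.2 ± 9.52 CPM (SD, n = 6 each). The log2 fold change was 0.58, or 1.49-fold (SE 0.175, interval 0.20 to 0.95, adjusted p = 0.0917), which did not pass the threshold of 0.05. Without Ts65Dn replicate 3, the mouse whose triplicated genes were at the wt level, it was 0.72 (interval 0.50 to 0.93, adjusted p = 0.00156) and passed. In those 11 libraries 2.79% of all genes tested passed, and this was the only single mouse whose removal gave a call. Without wt replicate 4 as well the log2 fold change was 0.72 (adjusted p = 0.00522), where 1.44% of all genes passed. Replicate 3 was singled out by triplicated genes near Pcp4, and it had the lowest Pcp4 of its group. Its removal had to raise the estimate, so these calls are not independent evidence. In the EC Pcp4 ranked 69 of 87 triplicated genes from the lowest log2 fold change, above their median of 0.50.

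The summed level of 8 striatal markers, none at 0 in any library, lay between 155 and 263 CPM in the Ts65Dn EC and between 155 and 184 in the wt EC. Drd2, the D2 dopamine receptor, was the only one of the 8 that passed the test, higher in Ts65Dn (log2 fold change 1.56, adjusted p = 0.0254). Drd2 did not pass without wt replicate 4, but passed without Ts65Dn replicate 3 and without both mice. The highest sums belonged to Ts65Dn replicates 6 (263), 2 (229) and 1 (191). Replicates 4 and 5, with sums of 166 and 167 within the wt range, had 141 and 143 CPM of Pcp4, both above every wt mouse. The part of the striatal markers in the Pcp4 difference was not tested.

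No gene of the 9 passed the test between genotypes in the EC (0 of 9, against 2.50% of 17049 genes tested), also with DESeq2, and 2 had an unadjusted p under 0.05, against 19% of all genes. None had groups that did not overlap, against 2.46% of all genes. The second of these 2 genes was Nectin3, which lay between 43.4 and 71.7 CPM in Ts65Dn mice (median 56.2) and between 53.4 and 79.0 in wt mice (median 72.1), with a log2 fold change of -0.32 (SE 0.124, interval -0.59 to -0.06, adjusted p = 0.174). The groups overlapped. For the other 7 genes the log2 fold change in the EC lay between 0.01 and 0.25, with adjusted p-values from 0.406 to 0.991. The interval was widest for the genes with the fewest EC counts, -0.36 to 0.86 for Spink8 and -0.53 to 0.56 for Map3k15.

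**Figure D4:**
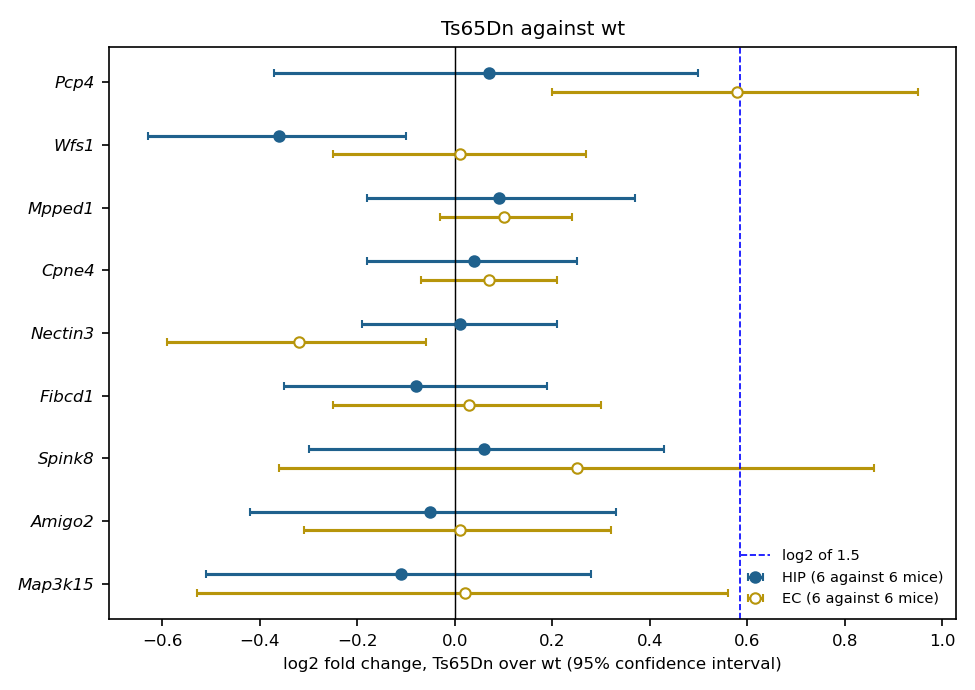
Log2 fold change of Ts65Dn over wt with its 95% confidence interval for the 9 genes in the HIP (filled) and the EC (open), 6 against 6 mice, with a dashed line at the log2 of 1.5. The Pcp4 interval includes that line in the EC and ends below it in the HIP, while the Wfs1 interval in the HIP and the Nectin3 interval in the EC end below 0.

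Wfs1 was the gene with an unadjusted p under 0.05 in the HIP. It lay between 103 and 158 CPM in Ts65Dn mice (median 124) and between 122 and 187 in wt mice (median 171). The groups overlapped, since wt replicates 4 and 5, at 122 and 155 CPM, lay below the highest Ts65Dn mouse. The log2 fold change was -0.36, or 1.29-fold lower (SE 0.124, interval -0.63 to -0.10, adjusted p = 0.182). Without wt replicate 4 and Ts65Dn replicate 3, it fell by 0.50 on the log2 scale (interval -0.73 to -0.28, adjusted p = 0.0377). It was then the only one of the 9 genes that passed, against 1.20% of all genes tested in those 10 libraries. These were the lowest wt and the highest Ts65Dn mouse for Wfs1, so leaving them out had to strengthen the difference. The EC value of Wfs1 was 0.01 on the log2 scale (interval -0.25 to 0.27). For the other 7 genes the log2 fold change in the HIP lay between -0.11 and 0.09, with adjusted p-values from 0.783 to 0.977. Fibcd1 and Spink8 had their lowest HIP values, 93.8 and 13.2 CPM, in Ts65Dn replicate 3.

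The other field markers did not pass the test between genotypes in the HIP (0 of 6 CA1, 0 of 7 CA2, 0 of 7 CA3 and 0 of 6 dentate markers). In the EC Plagl1, a zinc finger protein of the CA3 list, was lower in Ts65Dn (log2 fold change -0.40, adjusted p = 0.0454). Calb1, calbindin, which labels the same superficial EC neurons as Wfs1, was also lower there (-0.31, adjusted p = 0.00922). In the HIP Calb1 had a similar log2 fold change of -0.29 (interval -0.45 to -0.14, adjusted p = 0.0767), which did not pass. Plagl1 did not pass in the EC without wt replicate 4, without Ts65Dn replicate 3 or without both, whereas Calb1 passed there in each fit. Of 17 relatives of the 9 genes, 16 were tested, and Cpne2, another copine, was higher in the EC (0.45, adjusted p = 0.00990), with none called in the HIP. Of 11 genes for calmodulin and its partners, 2 were lower in the EC, and none was called in the HIP. These were Ppp3cb, a catalytic subunit of calcineurin (-0.28, adjusted p = 0.0200), and Calm2, a calmodulin gene (-0.19, adjusted p = 0.0377). Calm2 did not pass without wt replicate 4 or without that mouse and Ts65Dn replicate 3, whereas Ppp3cb passed in both of these fits. P2ry12, a purinergic receptor of microglia, was lower in the HIP (-0.27, adjusted p = 0.0422) and in the EC (-0.45, adjusted p = 0.0226).

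The third comparison tested whether the difference between genotypes changed with the region, with a term for each mouse. None of the 9 genes passed, as none of the 18109 genes tested did (0%), by edgeR or by DESeq2. Without the filter on low counts, 37 of the 36766 genes with at least 1 count passed, Pcp4 among them (-0.47, adjusted p = 0.0200). The Pcp4 estimate was close to the -0.46 of the fit with the filter, where Pcp4 did not pass. With the filter, 742 genes had an unadjusted p under 0.05 by edgeR, 4.1% of all. Pcp4 had a log2 difference of -0.46 between the genotype effects in the HIP and the EC (SE 0.160, interval -0.80 to -0.12, unadjusted p = 0.0117, adjusted p = 1), and Wfs1 -0.40 (interval -0.74 to -0.06, unadjusted p = 0.0245). Both values are negative where the Ts65Dn level relative to wt was lower in the HIP than in the EC. Nectin3 was at 0.33 (interval -0.01 to 0.66), and the other 6 genes lay between -0.20 and -0.01. The difference for Pcp4 was -0.31 without wt replicate 4 and between -0.57 and -0.39 when any other single mouse was left out.

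**Figure D5:**
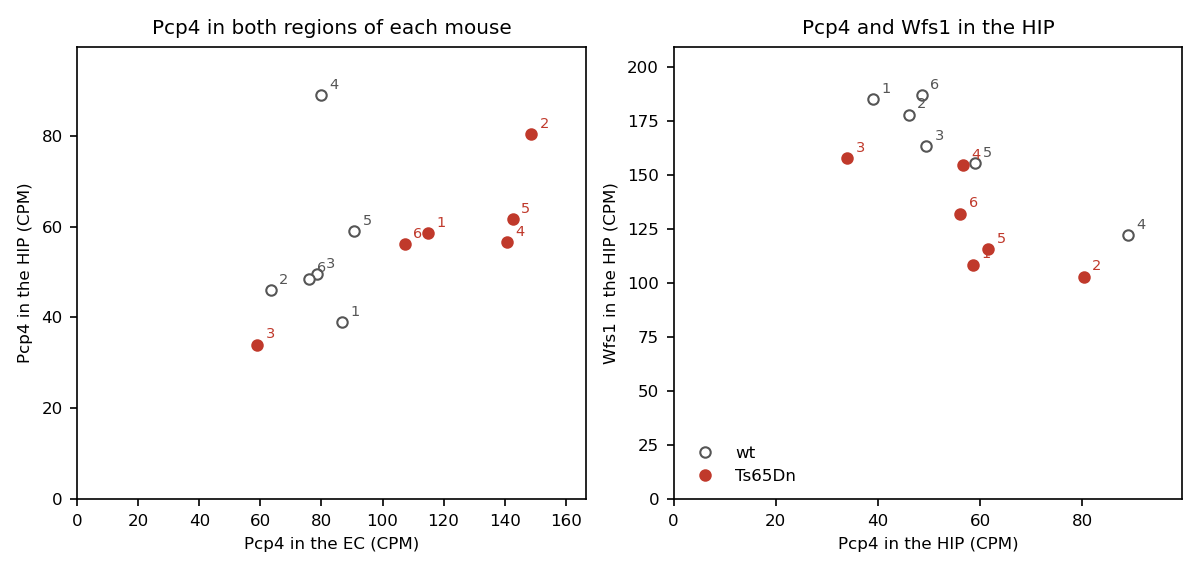
Left, Pcp4 in the HIP against the EC of each of 12 mice, in CPM; right, Wfs1 against Pcp4 in the HIP of the same mice (open, wt; filled, Ts65Dn; numbers, replicates). Ts65Dn replicate 3 has the lowest Pcp4 in both regions, and wt replicate 4 the highest in the HIP with 79.8 CPM in the EC.

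Within regions the 9 genes did not vary as 1 group. After the mean of each genotype was taken from log2 CPM, the correlation of Pcp4 with Wfs1 over the 12 HIP libraries was -0.86, and with Cpne4 0.75. Fibcd1 and Spink8, both CA1 markers, had 0.84, and Cpne4 and Nectin3 0.86, whereas Mpped1 had -0.79 with Amigo2 and -0.76 with Map3k15. Over the 12 EC libraries the highest values were those of Wfs1 with Spink8 (0.84) and with Fibcd1 (0.81), and Pcp4 had 0.16 with Wfs1 and 0.76 with Cpne4. Without wt replicate 4 and Ts65Dn replicate 3 the value of Pcp4 with Wfs1 in the HIP was -0.67, and with Cpne4 0.29 in the HIP and 0.41 in the EC. In those 10 HIP libraries Fibcd1 with Spink8 had 0.42, Cpne4 with Nectin3 0.78, Mpped1 with Amigo2 -0.71 and Mpped1 with Map3k15 -0.78. In the 10 EC libraries Wfs1 had 0.83 with Spink8 and 0.85 with Fibcd1. These values describe 12 or 10 libraries that share dissection, depth and library preparation.

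The genes whose level was most like that of Pcp4 were named by the same measure among genes with a mean of at least 1 CPM. In the HIP they were Elp4, Cct4, Ssb, Parp2 and Utp3, with correlations between 0.89 and 0.91 over 12 libraries and 14957 genes compared. Each of them varied little, Cct4 for example between 103 and 126 CPM, and 4 of the 5 had their highest level in wt replicate 4. In the EC they were Nampt, Gtf2h5, Tbc1d32, Uhrf2 and App, with correlations between 0.90 and 0.94 among 14696 genes. App, the amyloid precursor gene on Mmu16, and Gtf2h5, which encodes a TFIIH subunit and lies on the triplicated part of Mmu17, are themselves present in extra copy, and App ranged from 2325 to 3692 CPM. These correlations include Ts65Dn replicate 3. Over the 11 libraries per region without it, the 5 HIP genes had values of 0.84 to 0.90. The 5 EC genes had 0.43 to 0.79, with App at 0.43 and Gtf2h5 at 0.56.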

How the data were processed

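The authors aligned single-end reads of 50 bp to GRCm38 (Ensembl release 99; mm10 per the labels) with Hisat2 and deposited raw HTSeq-count counts per gene, without normalization, for 24 libraries. Their versions and the strand setting are not given in the sources used here. The library kit of the methods is stranded, takes total RNA and depletes ribosomal RNA, yet the molecules are called polyA RNA there, and the labels give a stranded mRNA kit. Each count column was used, and each line of the table named a gene. The authors' deposited comparison tables (mean normalized counts as a signal, log2 fold changes, ratios, scores and p-values from DESeq2 and FCROS) were not used. Groups and replicate numbers come from the labels, with the mouse pairing its 2 regions. Nothing in them says how mice were paired between genotypes.

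Identifiers were looked up in GENCODE vM21 (GRCm38), which held 99.6% of them. Tests used edgeR 4.0.16 in R 4.3.3 with filterByExpr, TMM and the quasi-likelihood test, adjusted over all genes tested, on 6 against 6 libraries between genotypes and with a term for each mouse between regions and for the interaction. Alternatives were DESeq2 1.42.0, an adjusted p under 0.1, edgeR with the size factors of DESeq2, a filter of at least 10 counts in every library or none, leaving out each mouse, and the fit with or without a replicate block. Leaving out wt replicate 4 and Ts65Dn replicate 3 together was chosen after seeing the data. CPM used TMM over all libraries, and log2 CPM a prior count of 2. The scripts were tested on simulated counts. Total counts per library lay between 23128589 and 40476492. Between genotypes, p-values measure the spread between mice. With a term for each mouse, they measure how the difference between regions varies from mouse to mouse. No 2 libraries were identical.

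The members and lists were chosen with earlier results of these data known. Named are the 9 members, the neighbours of Pcp4 that were tested, at most 4 called genes of each other list with the largest change, and the 5 genes most like Pcp4 per region. Runx1, Itgb2l and the list members Prox1, Dsp, Cux2, Rorb, Etv1, Ptpn5 and Plagl1 named for the checks were chosen with their values in view. 1 marker of the CA1 list is not reported here. Promoters come from RefSeq, with 7 of 9 members matched, and Spink8 and Map3k15 had no entry.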

Additional observations from a re-analysis of the deposited data

Results flagged for a closer look

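In the wt HIP, Amigo2 in replicate 4 stood far from the other 5 mice, at 42.6 CPM against 19.1 to 26.4, a gap of 0.688 of the whole range of the group, above Dixon's 95% critical value for 6 samples. Amigo2 in the EC of the same mouse was 5.34 CPM, inside the wt range of 4.72 to 7.15. This was the only one of 36 combinations of gene and group that stood apart in this way, where chance gives about 1 in 20. The same HIP library had the highest Pcp4, Cpne4 and Nectin3 of the wt mice, the lowest Wfs1 and Mpped1, and the highest summed thalamic markers (403 CPM).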

How the results depend on the processing

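The counts of markers that passed between regions, 9 in wt and 8 in Ts65Dn mice, were the same under each alternative run, and each left-out mouse. Between genotypes, the count in the HIP was 0, except for a count of 1 (Wfs1, -0.50) without wt replicate 4 and Ts65Dn replicate 3, where Pcp4 was at 0.37 and not called. In the EC it was 1 (Pcp4) with an adjusted p under 0.1 (0.58) and without those 2 mice (0.72), and 0 to 1 when 1 mouse was left out. For the interaction it was 1 (Pcp4, -0.47) without the filter on low counts, and 0 otherwise. Over the 12 left-out mice the Pcp4 log2 fold change lay between 0.50 and 0.72 in the EC, and between -0.05 and 0.26 in the HIP, where it was below 0 without wt replicate 1 or without Ts65Dn replicate 2. Without wt replicate 4 and Ts65Dn replicate 3 the sign turned for Wfs1 in the EC (-0.01), Fibcd1 (0.04) and Amigo2 (0.16) in the HIP and Amigo2 in the interaction (0.13), and with the replicate block for Amigo2 in the EC (-0.01). None of these had passed the test, and the cause was not tested.

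Leaving out 1 mouse turned the sign of other small differences that had not passed the test. Their log2 ranges were between genotypes in the EC -0.05 to 0.10 for Wfs1, -0.06 to 0.12 for Fibcd1, -0.08 to 0.08 for Amigo2 and -0.12 to 0.13 for Map3k15, and between genotypes in the HIP -0.14 to 0.02 for Fibcd1, -0.03 to 0.21 for Spink8, -0.02 to 0.10 for Cpne4, -0.12 to 0.15 for Amigo2 and -0.05 to 0.05 for Nectin3, and in the interaction -0.10 to 0.06 for Mpped1, -0.08 to 0.01 for Cpne4, -0.10 to 0.16 for Amigo2 and -0.29 to 0.06 for Map3k15, and between regions in Ts65Dn mice -0.04 to 0.15 for Nectin3.

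With the replicate number as a block between genotypes, Pcp4 had log2 fold changes of 0.08 (HIP) and 0.53 (EC, adjusted p = 0.171), and no call on the 9 genes changed, although 29 genes passed in the HIP in place of 181 and 36 in the EC in place of 426. The labels do not state that the numbers pair mice of different genotypes. The deviations of same-numbered libraries correlated between -0.22 and 0.17, and 1 of 6 wt libraries per region correlated best with its own number. With 6 pairs per region these correlations cannot exclude a pairing. Without the terms for the mice, no call between regions or in the interaction changed. Depth limits Spink8 and Map3k15 in the EC, where some libraries held 10 to 14 counts.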
